A study of Sus scrofa with 6 samples.

Results

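PDK4, UCP3, ANGPTL4 and CA4 were picked by name from the 4122 genes of the deposited tables, so the group holds 4 of 4122 genes. The working name for them is fasting-type fuel switch genes, after the change from burning glucose to burning fat that muscle, heart and fat tissue make without food. They were picked with their knockout to wild-type differences in view, so these differences are a description and carry no test. The 6 libraries come from lymph node, spleen and thymus of pigs with a biallelic RAG2 knockout and of wild-type littermates, all 3 months old. RAG2 is part of the recombinase that joins the gene segments of T-cell and B-cell receptors, and the title of the series describes the edit as the loss of 1 amino acid. Each tissue and genotype has 1 library, and the labels give neither the number of animals, nor their sex, nor when they last ate.

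In a fed cell, pyruvate made from glucose enters the mitochondrion and is turned into acetyl-CoA by the pyruvate dehydrogenase complex. In fasting, fatty acids activate the nuclear receptors of the PPAR family, falling insulin frees the FOXO transcription factors, and both raise PDK4, a kinase that switches the complex off. ANGPTL4 is a secreted protein, long known as a fasting-induced factor of fat tissue, that inactivates lipoprotein lipase, the vessel-wall enzyme that frees fatty acids from circulating fat particles. UCP3 is a carrier of the inner mitochondrial membrane, found mainly in skeletal muscle and brown fat. CA4 is a carbonic anhydrase anchored to the outer face of capillary and some epithelial cells, where it interconverts carbon dioxide and bicarbonate; it is better known as a capillary gene than as a fasting gene.

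By the files' counts, 1922562 to 2541724 fragments per library fell on the listed genes. Levels are in FPKM, that is, fragment counts adjusted for how long a transcript is and how deep its library. Only the thymus label could be set against a defining gene: the thymic epithelial chemokine CCL25 had 1423 FPKM (wild type) and 414 FPKM (knockout) in thymus and 1.04 FPKM or less elsewhere. RAG2 itself had 606 FPKM in wild-type thymus and 1072 FPKM in knockout thymus, and 5 fragments or fewer in the other libraries; an edit that removes 1 amino acid leaves the transcript in place, so this level does not check the genotype labels. The labels name no sex, but EIF1AY, which the reference annotation places on the Y chromosome, had 0, 0 and 1 fragments in the wild-type lymph node, spleen and thymus and 209, 194 and 597 in the knockout libraries. EIF1AY was chosen after its values were seen. The knockout and whatever else set these animals apart therefore cannot be told apart in any comparison that follows. In whole tissue, more cells of a type and more RNA per cell cannot be told apart either.

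PDK4 (chromosome 9, 75246956 to 75260134 in Sscrofa11.1) was the most abundant of the 4 genes in every knockout library. In lymph node the wild-type library held 44.5 FPKM (438 fragments), and the knockout library 1239 FPKM (12774 fragments). In spleen the levels were 120.0 and 297 FPKM (1213 and 3519 fragments), and in thymus 3.48 and 299.6 FPKM (36 and 3175 fragments). All 3 knockout libraries lay above all 3 wild-type libraries. The ratio of knockout over wild type was 27.9 in lymph node (95% counting interval 25.4 to 30.8), 2.48 in spleen (2.33 to 2.65) and 86.1 in thymus (62.1 to 123). Ratios are of scaled fragment counts, and the Clopper-Pearson intervals cover counting error only, with no replicate check. The 3 intervals do not overlap, so the size of the difference varied between the tissues by more than counting error. The gene took 0.632% of all listed fragments in the knockout lymph node (Wilson 95% interval 0.621 to 0.643%) against 0.0228% in wild type (0.0207 to 0.0250%). Ordered by FPKM it moved from place 1575 to place 99 of the 4122 genes in lymph node and from place 2492 to place 365 in thymus.

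ANGPTL4 (chromosome 2, 70905767 to 70912892) was also higher in the knockout in each tissue. In lymph node its level went from 95 FPKM (wild type, 455 fragments) to 612 FPKM (knockout, 3075 fragments). In spleen it was 26.9 and 143.6 FPKM (132 and 829 fragments), and in thymus 10.3 and 29.5 FPKM (52 and 152 fragments). Unlike PDK4, its knockout and wild-type levels overlapped across tissues, since the wild-type lymph node lay above the knockout thymus. The ratios were 6.47 in lymph node (5.86 to 7.15), 5.38 in spleen (4.47 to 6.51) and 2.85 in thymus (2.07 to 3.99). The lymph node and spleen intervals overlap, and that of thymus lies below both.

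UCP3 (chromosome 9, 8378023 to 8389452) was a gene of low level throughout. Lymph node held 1 fragment of it in wild type against 98 in the knockout, or 0.166 and 15.5 FPKM. In thymus it had 5 and 25 fragments, or 0.789 and 3.85 FPKM. In spleen 0 of 2084768 fragments fell on it in wild type, which allows up to 0.482 FPKM (3 fragments), and 2 fragments in the knockout, so no difference was detectable there at this depth. The ratio was 93.8 in lymph node (16.4 to 3740.3) and 4.88 in thymus (1.84 to 16.3).

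CA4 (chromosome 12, 37962951 to 37972443) was near the limit of detection in all 3 wild-type libraries, with 2 fragments in each, or 0.705, 0.688 and 0.673 FPKM in lymph node, spleen and thymus. The knockout lymph node held 255 fragments (85.5 FPKM), the knockout thymus 25 (8.21 FPKM) and the knockout spleen 1 (0.292 FPKM). CA4 thus stood above the wild-type range in knockout lymph node and thymus and not in spleen, where 2 and 1 fragments allow no fold. The ratio was 122 in lymph node (33.4 to 1013) and 12.2 in thymus (3.04 to 106).

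**Figure D1:**
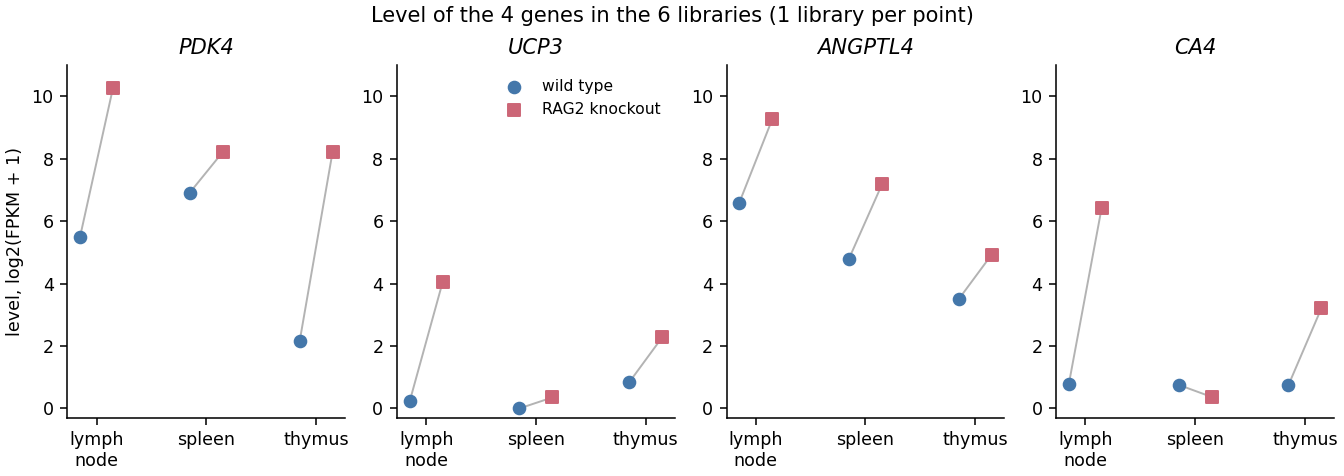
Level of PDK4, UCP3, ANGPTL4 and CA4 as log2(FPKM + 1) in each of the 6 libraries, with a circle for wild type and a square for RAG2 knockout and a line joining the libraries of 1 tissue. PDK4 and ANGPTL4 were higher in the knockout in all 3 tissues, while UCP3 and CA4 stayed below 1 FPKM in both spleen libraries.

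The log2 ratio used from here on divides knockout by wild type with 1 FPKM added to both values; a gene is called higher or lower when this ratio is at least 1 in size. Genes that reached 1 FPKM in either library of a tissue count as measured there. By this rule all 4 genes were measured and higher in lymph node (log2 ratios 4.77 for PDK4, 3.82 for UCP3, 2.67 for ANGPTL4 and 5.66 for CA4), where 15.3% of the 2910 measured genes were higher. All 4 were higher in thymus (6.07, 1.44, 1.43 and 2.46 in the same order), where 15.2% of 2908 were. In spleen PDK4 (1.30) and ANGPTL4 (2.38) were measured and higher, where 8.88% of 2849 were. The genes were chosen on these contrasts, so nothing is read from these counts. Requiring also that the counting interval exclude 1 kept all 10 of these calls, and left 13.1, 7.51 and 13.5% of measured genes higher and 8.87, 8.42 and 8.53% lower in lymph node, spleen and thymus. The UCP3 call in thymus ends with a pseudocount of 5 FPKM in place of 1, where its log2 ratio was 0.61. Ordered by log2 ratio, PDK4 stood at place 5 in thymus, place 31 in lymph node and place 165 in spleen. As the gene was chosen with these differences in view, its places are a description too. PDK4 and ANGPTL4 were among 51 genes called higher in all 3 tissues, 1.91% of the 2671 genes measured in each.

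**Figure D2:**
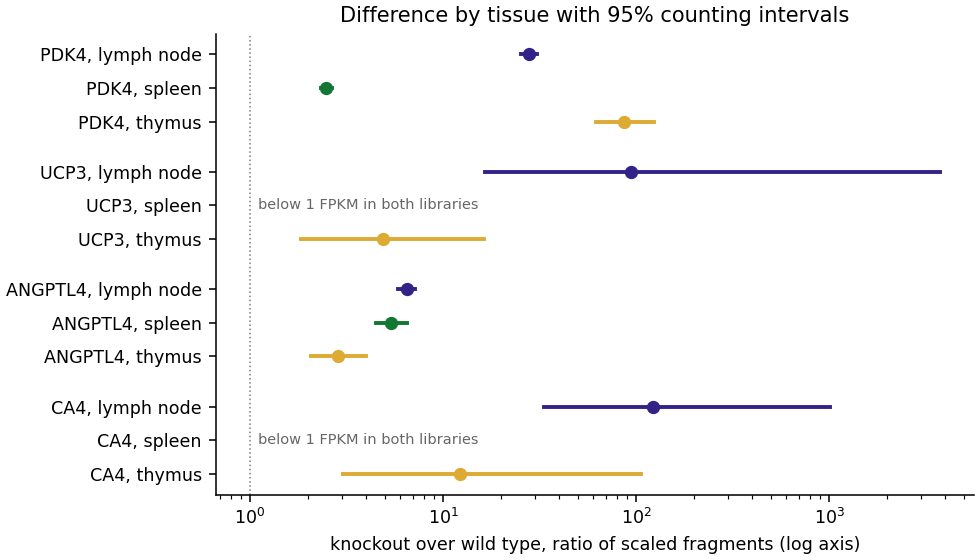
Ratio of knockout over wild type in scaled fragments, on a log axis, for each gene and tissue, with bars for the 95% counting interval of the 2 libraries compared. All 10 measured ratios lie above 1, from 2.48 for PDK4 in spleen to 122 for CA4 in lymph node, and the ratios of UCP3 and CA4, which rest on 1 to 5 wild-type fragments, have the widest intervals.

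Across all 6 libraries the knockout lymph node held the highest level of each of the 4 genes. PDK4 came next in knockout thymus and knockout spleen, which did not differ beyond counting error (ratio 1.01, 0.961 to 1.06), and below them stood wild-type spleen, wild-type lymph node and wild-type thymus in that order. For ANGPTL4 the order after the knockout lymph node was knockout spleen, wild-type lymph node, knockout thymus, wild-type spleen and wild-type thymus, with knockout thymus and wild-type spleen alike within counting error (1.1, 0.865 to 1.40). UCP3 and CA4 were both next highest in the knockout thymus, at 4.02-fold (2.57 to 6.51) and 10.4-fold (6.90 to 16.4) below the knockout lymph node. Of the lower steps with fragments in both libraries, only that of UCP3 from knockout to wild-type thymus (4.88, 1.84 to 16.3) and that of CA4 from knockout thymus to wild-type lymph node (11.6, 2.90 to 101) were larger than counting error. The authors' FPKM were calculated for each tissue table on its own, and scaling the counts over all 6 libraries swapped PDK4 in knockout thymus and spleen, ANGPTL4 in knockout thymus and wild-type spleen, and CA4 in wild-type lymph node and spleen, and no others.

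The close relatives found among the listed genes gave mixed results. UCP2 in thymus and SLC25A27 and CA3 in lymph node were called higher, while PDK1 and ANGPTL2 were not called in any tissue. PDK1 is the only other kinase of the pyruvate dehydrogenase complex found among the listed genes. Its level was 131 and 81.7 FPKM in lymph node (wild type and knockout), 44.8 and 28.1 FPKM in spleen and 59.4 and 48.3 FPKM in thymus. The 2 kinases therefore changed places: the FPKM of PDK4 was 0.339 times that of PDK1 in wild-type lymph node, 15.2 times in knockout lymph node, and 0.0586 and 6.21 times in wild-type and knockout thymus. In spleen PDK4 was the higher of the pair in both genotypes, at 2.68 and 10.6 times. The subunits PDHB, DLAT and DLD of the complex itself had log2 ratios between -0.39 and 0.38 in the 3 tissues.

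UCP2, a broadly expressed uncoupling protein whose gene lies beside UCP3 on chromosome 9, was far more abundant than UCP3 in every library. It stood at 71.4 and 63.8 FPKM in lymph node and 153 and 259 FPKM in spleen, neither a call, and at 26.0 and 55.7 FPKM in thymus, a call (2.14-fold, 1.67 to 2.76) that ends with a pseudocount of 5 FPKM. UCP2 exceeded UCP3 by 431 times in the wild-type lymph node, on 1 fragment of UCP3, and by 4.12 times in the knockout. SLC25A27, another carrier of this family, was higher in lymph node (log2 ratio 1.16) and not called in spleen (-0.02) or thymus (0.92).

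ANGPTL2, a secreted relative of ANGPTL4, was not called in any tissue (0.57 in lymph node, -0.22 in spleen and 0.93 in thymus). ANGPTL1 was not called in thymus (0.21). ANGPTL7 was lower in thymus (-1.14, on 8 and 2 fragments) with a counting interval that includes 1, and not called in spleen (0.22). Of the carbonic anhydrases, CA3, an enzyme of the cytosol abundant in muscle and fat, resembled CA4 in lymph node. Its level there was 1.60 FPKM (wild type) and 37.6 FPKM (knockout), on 7 and 173 fragments, a ratio of 23.6 (11.2 to 59.7). In thymus CA3 stood at 8.91 and 14.2 FPKM, short of a call, and in spleen it had 1 and 0 fragments. CA11 was lower in spleen (-1.14, on 9 and 3 fragments) with a counting interval that includes 1, and not called in thymus (0.67).

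**Figure D3:**
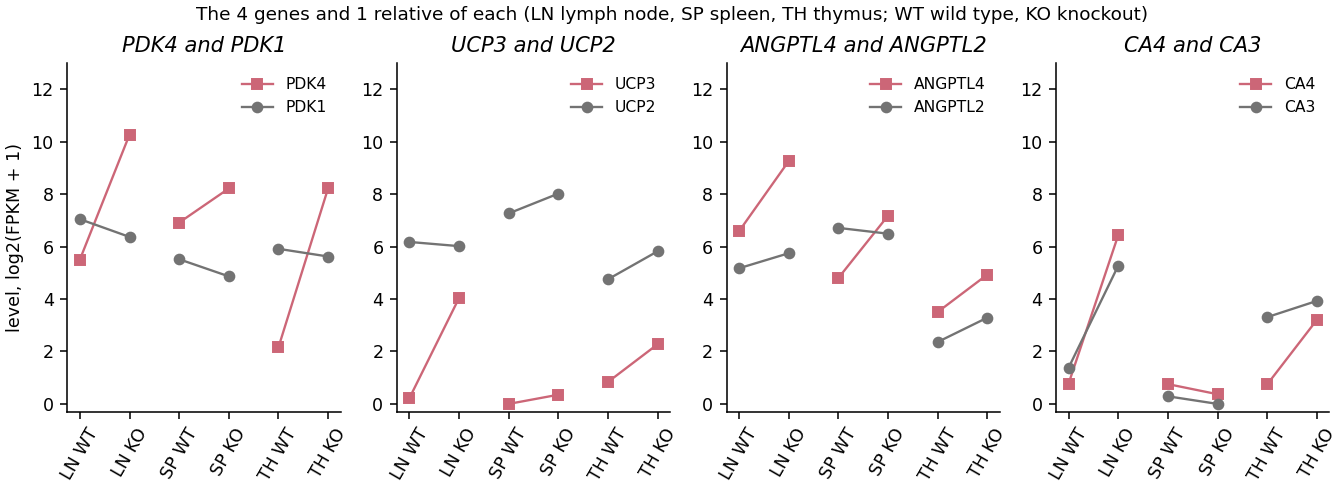
Level as log2(FPKM + 1) of each of the 4 genes (squares) and of 1 relative (circles) in the 6 libraries, with lines joining wild type and knockout of a tissue. PDK4 lay below PDK1 in wild-type lymph node and thymus and above it in both knockouts, while UCP3 lay below UCP2 in every library.

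The PPAR receptors, known to act on PDK4, UCP3 and ANGPTL4, were measured too. PPARA, the receptor of fasting in liver and muscle, was higher in the knockout thymus, at 5.05 and 19.98 FPKM (3.96-fold, 2.37 to 6.92), and not called in lymph node (17.6 and 28.1 FPKM) or spleen (32.3 and 26.6 FPKM). PPARG, the regulator of fat-cell identity, was higher in lymph node at 26.1 and 110.3 FPKM (4.24-fold, 3.47 to 5.22) and in thymus at 7.73 and 19.2 FPKM (2.48-fold, 1.68 to 3.73). In spleen PPARG was not called, with 245 and 230.1 FPKM. PPARD was not called in any tissue, with log2 ratios from 0.47 to 0.79. Of the whole list of PPAR receptors and coregulators 9 genes were measured in lymph node, 3 of them higher and 0 lower, with 0 and 0 of 9 in spleen and 3 and 0 of 9 in thymus.

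Of the list of other PPAR target genes 23 genes were measured in lymph node, 15 of them higher and 2 lower (median log2 ratio 1.85, against -0.0046 over all measured genes). In thymus 9 of 21 were higher and 0 lower (median 0.69, against 0.00 over all genes), and in spleen 5 of 21 higher and 1 lower (median 0.0915, against -0.0159). Higher calls made up 15.3, 8.88 and 15.2% of all measured genes in lymph node, spleen and thymus, and lower calls 10.3, 10.0 and 10.9%. The counts of every list in this report are to be read beside these shares. CIDEA and CIDEC coat lipid droplets: CIDEA was 45.8-fold higher in lymph node (28.8 to 77.7) and 4.05-fold in thymus (2.46 to 6.97), while CIDEC had log2 ratios of 5.53 and 1.27 there and was lower in spleen (-1.86, on 8 and 1 fragments). This list shares 7 of its listed members with the adipocyte list, and without them lymph node had 9 higher of 16 measured, thymus 4 of 14 and spleen 3 of 15, a comparison added after seeing the data.

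Of the genes that carry and burn fatty acids, 26 were measured, of which 6 were higher and 0 lower in lymph node (median 0.48), 2 and 1 in spleen (0.077) and 7 and 1 in thymus (0.33). The higher calls were 23.1, 7.7 and 26.9% of this list, against 15.3, 8.88 and 15.2% of all measured genes. CD36, the surface transporter of fatty acids, was higher in lymph node at 260.2 and 1920 FPKM (7.40-fold, 7.03 to 7.79) and in thymus at 49.0 and 321 FPKM (6.54-fold, 5.83 to 7.37), and in spleen stood at 279 and 262 FPKM. CPT1A, the gate of fatty acid entry into mitochondria, was 3.26-fold higher in lymph node (2.62 to 4.08) and 3.17-fold in thymus (2.77 to 3.64), and in spleen its ratio of 1.28 (1.11 to 1.46) was no call. The genes called higher in spleen were FABP5, a cytosolic fatty acid carrier, at 709 and 5005 FPKM (7.19-fold, 6.75 to 7.67), and ACSL1 (log2 ratio 1.57), which activates fatty acids. ACSL5, a related enzyme, was lower in spleen (-3.11, on 78 and 3 fragments) and thymus (-2.93, on 57 and 1). ACADS, ACADM and HADHA, which carry out steps of the oxidation itself, were not called in any tissue, with log2 ratios from -0.20 to 0.86.

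LPL, the lipase that ANGPTL4 inactivates, had 13 and 155 fragments in lymph node, wild type and knockout (11.4-fold, 6.48 to 21.9), 2 and 2 in spleen and 53 and 50 in thymus. GPIHBP1, which holds the lipase on capillary walls, was 36.6-fold higher in lymph node (14 to 136, from 4 to 153 fragments) and 20.5-fold in thymus (3.30 to 848, from 1 to 21 fragments). In spleen GPIHBP1 had a ratio of 1.01 (0.696 to 1.46). Over the list, 8 genes were measured in lymph node, 4 of them higher and 1 lower, with 1 and 3 of 9 in spleen and 3 and 3 of 9 in thymus (medians 0.96, -0.0924 and -0.12).

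Pyruvate has a second route into mitochondrial metabolism through pyruvate carboxylase, PC, which was higher in each tissue as PDK4 was. PC stood at 6.91 and 443 FPKM in lymph node (64.5-fold, 40.1 to 111), 2.67 and 10.7 FPKM in spleen (4.01-fold, 2.32 to 7.38) and 23.6 and 82.1 FPKM in thymus (3.47-fold, 2.60 to 4.69). PCK1, which takes the next step of glucose synthesis and also serves fat storage, had 0 and 591 fragments in lymph node, at least 188-fold higher against a floor of 3 fragments, with a lower counting limit of 153. It had 12 and 42 fragments in spleen (3.00-fold, 1.55 to 6.25) and 1 and 98 in thymus (95.7-fold, 16.8 to 3817). Of the gluconeogenesis and ketogenesis list 7 genes were measured in lymph node, 4 of them higher and 0 lower, with 3 and 1 of 6 in spleen and 2 and 0 of 7 in thymus (medians 1.39, 0.68 and 0.58).

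Signals that surround fasting gave the following counts. For insulin and FOXO pathway genes lymph node had 7 higher and 0 lower of 13 measured, thymus 6 and 0 of 12, and spleen 2 and 2 of 12 (medians 1.1, 0.93 and 0.0974). TXNIP, a brake on glucose uptake, was 5.40-fold higher in lymph node (5.24 to 5.57) and 5.44-fold in thymus (5.25 to 5.64), and in spleen its ratio was 1.07 (1.04 to 1.1). FOXO3, a factor that insulin holds out of the nucleus and that was chosen after its values were seen, was higher in all 3 tissues with overlapping intervals, at 2.7 (2.36 to 3.11), 2.51 (2.26 to 2.79) and 2.88 (2.52 to 3.30). Its relative FOXO1 was not called in spleen (ratio 0.727, 0.623 to 0.849) or thymus (1.30, 1.03 to 1.63). IGF1 was lower in spleen (log2 ratio -3.68, on 35 and 2 fragments) and higher in thymus (1.09, on 9 and 21). In this list PRKAA2 met the size threshold in spleen and thymus on a single fragment.

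Glucocorticoids, the hormones of fasting and stress, also raise PDK4 and ANGPTL4. Of the glucocorticoid-response list 9 genes were measured in lymph node, 2 of them higher and 0 lower, with 1 and 0 of 9 in spleen and 3 and 1 of 8 in thymus (medians 0.53, 0.47 and 0.47). KLF9, a transcription factor induced by these hormones, was higher in lymph node (3.49-fold, 2.65 to 4.66) and thymus (3.25-fold, 2.10 to 5.21) and had a ratio of 0.88 in spleen (0.695 to 1.11). The metallothionein MT1A had 0 and 92 fragments in lymph node, 0 and 37 in thymus, and 0 and 1 in spleen, which is the 1 spleen call of the list.

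Of glucose uptake and glycolysis genes 3 of 13 were higher and 1 lower in lymph node, 1 and 2 of 12 in spleen and 0 and 2 of 12 in thymus (medians -0.0256, -0.0717 and -0.40). Of 10 measured hypoxia-response genes, lymph node had 2 higher and 2 lower, spleen 1 and 0, and thymus 0 and 0 (medians 0.13, 0.13 and -0.0503). HK2, the hexokinase of muscle and fat, was higher in lymph node (6.29-fold, 3.87 to 10.8) and spleen (2.99-fold, 2.22 to 4.09), and its log2 ratio of 0.99 in thymus was just short of a call.

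**Figure D4:**
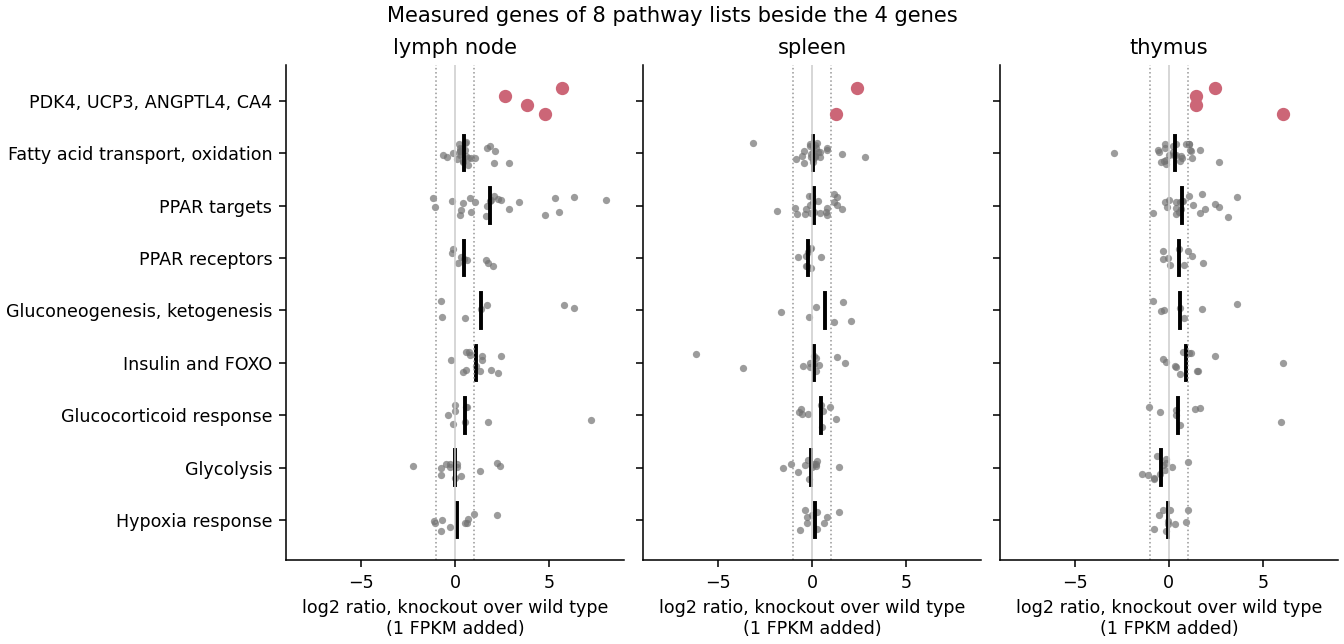
Log2 ratio of knockout over wild type for each measured gene of 8 pathway lists in the 3 tissues, with the 4 genes as large points in the top row, a black bar at each list's median and dotted lines at -1 and 1. In lymph node the PPAR target list had the highest median, 1.85, and in spleen all 8 medians lay between -0.22 and 0.68.

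Fat cells express all of PDK4, ANGPTL4 and CA3, and their markers moved with the 4 genes in lymph node and thymus. Of 19 measured adipocyte markers in lymph node 15 were higher and 1 lower (median 3.81). Thymus had 12 and 1 of 18 (1.27) and spleen 3 and 2 of 15 (-0.0905). One of these markers, RETN, is also counted among the neutrophil markers and was higher in each tissue, with 2 and 56 fragments in spleen. Summed over the adipocyte list, wild type and knockout held 518 and 10762 FPKM in lymph node, 899 and 2344 FPKM in thymus, and 518 and 609 FPKM in spleen. The hormone ADIPOQ had 17 and 4550 fragments in lymph node, 81 and 882 in thymus and 5 and 4 in spleen. PDK4 and ADIPOQ did not keep a fixed proportion: the FPKM of PDK4 was 1.64 times that of ADIPOQ in wild-type lymph node, 0.166 times in knockout lymph node, and 0.0223 and 0.218 times in wild-type and knockout thymus. In spleen PDK4 and ANGPTL4 were 2.48-fold and 5.38-fold higher in the knockout with ADIPOQ at 5 and 4 fragments and the fat-droplet protein PLIN1 at 3 and 0. The part of fat cells in the lymph node and thymus differences was not tested.

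UCP3 is a gene of skeletal muscle, and CKM and MB, the creatine kinase and the myoglobin of muscle, are listed at 0 in all 6 libraries. PRKAA1, a subunit of the energy-sensing kinase AMPK that nearly every cell uses, is listed at 0 in all 6 as well, so a 0 in these tables need not mean that a transcript was absent. MYH1, a fast muscle myosin, had 301 and 607 fragments in wild-type and knockout thymus, a value that may include reads of its near-identical myosin relatives. Of 10 measured striated muscle markers in lymph node 0 were higher and 4 lower, of 16 in thymus 1 was higher and 10 lower, and of 8 in spleen 1 was higher and 1 lower. With the counting interval as well, 1 of the 4 lower calls in lymph node and 9 of the 10 in thymus were left, and 0 of the higher calls in spleen. Their summed level was 66.3 to 674 FPKM in the knockout and 93.6 to 872 FPKM in the wild-type libraries. The upper values, 872 and 674 FPKM, were those of spleen and were mostly 1 gene, DES (850 and 656 FPKM). Of brown or beige fat markers, CIDEA was higher in lymph node and thymus, and the thyroid hormone activator DIO2 was higher in lymph node (2.73) and lower in thymus (-1.88, on 9 and 1 fragments). This list had 2 higher and 0 lower of 3 measured in lymph node, 0 and 0 of 1 in spleen and 2 and 1 of 4 in thymus.

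CA4 marks capillaries, and of 11 measured blood endothelial markers 7 were higher in thymus, 4 in lymph node and 0 in spleen, with 0 lower in each (medians 1.29, 0.96 and 0.26). CLDN5, a junction protein of blood vessels, was 2.74-fold higher in lymph node (2.45 to 3.08) and 5.86-fold in thymus (2.75 to 14.3). GPIHBP1, also of this list, had ratios of 36.6 (14 to 136) in lymph node and 20.5 (3.30 to 848) in thymus. These rest on 4 and 1 wild-type fragments, and those of CA4 on 2 and 2. Intervals this wide overlap easily, so their overlap says little about likeness. In spleen GPIHBP1 had 57 and 67 fragments (wild type and knockout), against 2 and 1 of CA4. The summed level of the list was 791 to 1742 FPKM over the wild-type libraries and 1001 to 3168 FPKM over the knockout libraries. In thymus the sum, 1695 and 1490 FPKM, was mostly RGC32 (1543 and 1124 FPKM), and the other 10 markers held 152 and 366 FPKM, a split made after seeing the data. The red-cell gene HBB, a sign of blood in a sample, was higher in knockout lymph node (347 and 6625 fragments) and thymus (878 and 4715) and lower in knockout spleen (39042 and 21497). Erythroid markers had 2 higher and 1 lower of 5 in lymph node, 3 and 1 of 6 in thymus, and 2 and 1 of 6 in spleen. The part of vessels and blood in the CA4 difference was not tested.

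Markers of other cells differed between the same libraries. Of the neutrophil markers 8 of 8 were higher in spleen, 6 of 8 in thymus and 5 of 7 in lymph node, with 0, 0 and 1 lower. Macrophage markers were higher in 5 and lower in 0 of 13 in lymph node, 4 and 2 in spleen and 10 and 1 in thymus. Fibroblast markers were higher in 4 and lower in 1 of 9 in lymph node, 1 and 6 in spleen and 2 and 2 in thymus, and thymic epithelial markers 2 and 0 of 4, 1 and 2 of 5 and 1 and 2 of 6. With the counting interval as well, thymic epithelial markers had 1 and 0, 0 and 1, and 1 and 1. Of 13 T-cell markers 12 were lower in lymph node, 9 in thymus and 7 in spleen, and of 5 B-cell markers 5, 3 and 5, with 0 of either list higher. The part of this shift in cell make-up in the differences of the 4 genes was not tested.

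**Figure D5:**
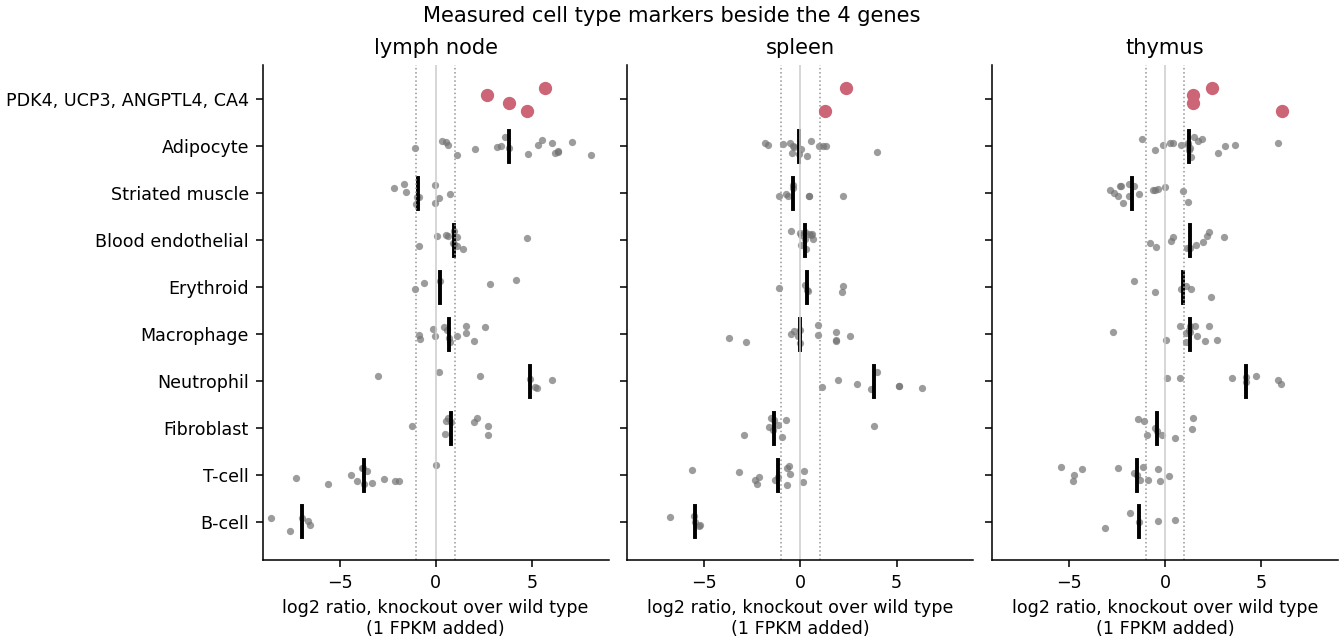
Log2 ratio of knockout over wild type for each measured marker of 9 cell types in the 3 tissues, with the 4 genes as large points in the top row, a black bar at each list's median and dotted lines at -1 and 1. Adipocyte markers had a median of 3.81 in lymph node, 1.27 in thymus and -0.0905 in spleen, while striated muscle markers had medians below 0 in all 3 tissues.

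The 4 genes formed no single pattern over the 6 libraries. Pearson's r of log2(FPKM + 1), which describes likeness and shares the same libraries throughout, was 0.98 between UCP3 and CA4, 0.77 between PDK4 and ANGPTL4 and 0.55 to 0.66 for the other pairs. Without the knockout lymph node, the library in which all 4 were highest, r between UCP3 and CA4 was 0.93 and between PDK4 and ANGPTL4 0.61, while ANGPTL4 had -0.33 with UCP3 and -0.26 with CA4. The value of 0.93 rests largely on the knockout thymus, with 25 fragments each of UCP3 and CA4. The other libraries left held 0 to 5 fragments of UCP3 and 1 to 2 of CA4. Leaving the knockout lymph node out was added after seeing the data.

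Among 2803 other genes that reached 5 FPKM in any library, the 5 most like PDK4 over all 6 libraries were LPIN3 (0.98), GLUL (0.97), TLR3 (0.97), C18H7orf41 (0.96) and ATP9A (0.95). GLUL, glutamine synthetase, stood at 386 and 2096 FPKM in lymph node, 646 and 1226 FPKM in spleen and 235 and 866 FPKM in thymus. LPIN3, a lipid phosphatase, stood at 4.20 and 14.6 FPKM, 7.19 and 13.8 FPKM and 1.09 and 9.23 FPKM. Both had their lowest level in the wild-type thymus and their highest in the knockout lymph node, as PDK4 did. Since they were picked for likeness to PDK4 over these same libraries, this largely follows from the choice.

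Most like UCP3 were ABHD5 (0.98), which activates fat breakdown on lipid droplets, the adiponectin receptor ADIPOR2 (0.98), the retinol carrier RBP4 (0.98), PC (0.98) and CA4 (0.98). Most like CA4 were LGALS12 (0.98), a galectin of fat cells, UGP2 (0.98), UCP3 (0.98), ADIPOR2 (0.97) and the autophagy gene GABARAPL1 (0.96). Most like ANGPTL4 were SPEF1 (0.99), the calcium-binding protein SRI (0.98), PHGK (0.97), the death ligand TNFSF10 (0.97) and RHOJ (0.96), a small GTPase of endothelial cells. Some of these likenesses rest on few fragments, with 6 to 24 a library for SPEF1, 7 to 74 for PHGK and 0 to 25 for LGALS12. RHOJ stood at 45.0 and 227 FPKM in lymph node, 24.4 and 45.3 FPKM in spleen and 4.55 and 23.3 FPKM in thymus. With 6 points, and 1 of them far above the rest for UCP3 and CA4, many genes reach such values: r was above 0.95 for 5 genes with PDK4, 24 with UCP3, 9 with ANGPTL4 and 17 with CA4.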

How the data were processed

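Total RNA was sequenced from lymph node, spleen and thymus of RAG2 knockout and wild-type pigs (RNeasy extraction and TruSeq stranded libraries, per the labels' protocols). Per the submitters' processing notes, FastQC 0.11.9, Trimmomatic 0.39, STAR 2.7.9a, Cufflinks 2.2.1 and build Sscrofa11.1 were used; for their order, settings, annotation and strand handling nothing is stated in the labels. FPKM values were deposited by the authors, 1 table per tissue. The deposited tables of estimated counts held, by their values, fragments multiplied by 1 factor per library: dividing a library's values by its most frequent one left 97.0 to 99.2% of values above 0 within 0.02 of a whole number, and the quotients were rounded.

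No test was made, since each tissue and genotype has 1 library; a fit of genotype with tissue as a block over the 6 libraries could be made and was not, since the members were chosen on these differences. The members and the 24 gene lists were chosen with earlier results of these data known. List genes were matched by symbol (270) or older name (9), and 172 had no row. Named genes are the 4 members, their relatives, up to 3 called genes with the largest log2 ratio per list and tissue, and the 5 genes most like each member; a gene named in 1 tissue may be given in the others. Outside this rule, RAG2 as the targeted gene and ACADS, ACADM, HADHA, PDHB, DLAT, DLD, FOXO1, FOXO3, CKM, MB, MYH1, DES, PRKAA1, RGC32 and EIF1AY were named after their values were seen. Coordinates and the chromosome of genes come from RefSeq's annotation of Sscrofa11.1. Calls and intervals were tested on simulated counts that varied by counting error only, which does not cover differences between animals. Changes were placed only in genes with more fragments than UCP3 and CA4 had in wild type. Alternatives were scaling to the total, edgeR 4.0.16 TMM and DESeq2 1.42.0 size factors, pseudocounts, expression minimums, centring, a threshold of 2 and the counting interval. R 4.3.3 and Python 3.11.15 were used, the latter with matplotlib 3.10.9, scipy 1.17.1, pandas 2.3.3 and numpy 2.4.6.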

Additional observations from a re-analysis of the deposited data

How the results depend on the processing

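The labels give no replicate numbers, and each comparison within a tissue has 1 library a genotype, so it comes from no test. A fit that pairs the libraries by tissue, with tissue as a block, could be made. It was not made, since the members were chosen on these differences. The 10 measured differences of PDK4, UCP3, ANGPTL4 and CA4 kept their direction under each of the 6 alternatives (scaling to the total, TMM, DESeq2 size factors, pseudocounts of 0.1 and 5 FPKM, centring), and 9 of 10 kept their call in each. With a pseudocount of 5 UCP3 in thymus lost its call (0.61), PDK4 in thymus stood at 5.17, outside its counting interval, and the low-count differences shrank most, to 1.99 for UCP3 and 3.99 for CA4 in lymph node and 1.22 for CA4 in thymus. With a threshold of 2, a check added after seeing the data, PDK4 in spleen and UCP3 and ANGPTL4 in thymus lost their calls, and with a minimum of 5 FPKM UCP3 in thymus was not measured. A pseudocount of 0.1 gave 5.87 for UCP3 and 6.73 for CA4 in lymph node and 3.43 for CA4 in thymus. Scaling to the total moved the median of all thymus genes to 0.116. The numbers of genes called higher and lower with a threshold of 2 were 163 and 112 in lymph node, 79 and 76 in spleen and 110 and 105 in thymus, and with a pseudocount of 5 they were 166 and 160 in spleen and 272 and 183 in thymus. With a pseudocount of 5 the PPAR target list had 2 higher in spleen and adipocyte markers 7 higher in thymus. With the counting interval, lower calls in spleen went from 2 to 1 for insulin and FOXO genes and from 2 to 1 for adipocyte markers, and in thymus from 1 to 0 for erythroid markers, while glucocorticoid-response genes had 0 higher in spleen. Of the 5 genes most like each member, 1 remained for UCP3 and 1 for CA4 with a pseudocount of 0.1, and without the knockout lymph node 1 remained for PDK4, 0 for UCP3, 2 for ANGPTL4 and 0 for CA4. Depth limits UCP3 and CA4, which had 5 fragments or fewer in each wild-type library.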
